A study of Mus musculus with 28 samples.

Results

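The fibrillar collagens are the chains that build the banded fibres of connective tissue. Described here are 10 mouse genes for such chains, not a full list of the family. These genes were taken by symbol: Col1a1, Col1a2, Col3a1, Col5a1, Col5a2, Col5a3, Col11a1, Col11a2, Col24a1 and Col27a1. They were 10 of 54109 gene identifiers in the table of reprogramming cells and 10 of 54838 in the table of induced pluripotent stem cells (iPSC). All 10 were found in both tables, and all 10 passed the filter on low values in both, Col11a2 on 3 to 16 reads a library in the reprogramming table.

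Reprogramming turns fibroblasts into pluripotent cells through the forced expression of Oct4, Klf4 and Sox2, with or without Myc. The 12 reprogramming libraries came from mouse embryonic fibroblasts (MEF) of embryonic day 13.5 to 15.5 and formed 4 groups of 3. DOX 3C UNC cells received doxycycline at 1 µg/ml, the 3 compounds called 3C and UNC0638 (UNC) at 1 µM. DOX 3C cells received doxycycline and 3C, DOX UNC cells doxycycline and UNC, and DOX cells doxycycline alone. 3C stood for 50 µg/ml L-ascorbic acid (vitamin C), 3 µM of the GSK3 inhibitor CHIR99021 and 250 nM of TGF-b RI Kinase Inhibitor II, which blocks the type I TGF-β receptor. No library had 1 of them alone. UNC0638 inhibits the H3K9 methyltransferases G9a and GLP. The other 6 libraries came from iPSC derived from MEF, 3 with UNC0638 for the first 48 hours (iPSC UNC) and 3 with DMSO (iPSC DMSO). All groups shared heterozygous Rosa26-rtTA and Oct4-GFP and carried either 1 inducible OKSM allele or 2 inducible OKS alleles; the labels do not say which library carried which. In the published OKSM strain the inducible cassette lies at the Col1a1 locus, and its part in the Col1a1 values was not tested. The reprogramming cells were seeded on irradiated feeder cells, whose own collagen RNA cannot be told apart from that of the reprogramming cells. Nothing in the labels says that replicates were separate cultures or embryos, so p-values measure the spread between these libraries, which may be technical. Labels of the 12 reprogramming libraries do not say after how long the cells were harvested.

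A fibrillar collagen is secreted as a procollagen of 3 chains wound into a triple helix, trimmed outside the cell and assembled into fibrils. Type I collagen, of chains from Col1a1 and Col1a2, is the main fibril of skin, bone and tendon, and type III, from Col3a1, joins it in soft tissues. Type V, from Col5a1, Col5a2 and Col5a3, sits inside type I fibrils and sets their start and width. Type XI, from Col11a1 and Col11a2, has the like part in cartilage. Types XXIV and XXVII, from Col24a1 and Col27a1, are later additions to the family, described in bone and in cartilage. Embryonic fibroblasts are rich producers of types I, III and V, and loss of fibroblast genes is a known early feature of reprogramming.

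The 10 genes lie on 8 chromosomes, and only Col3a1 and Col5a2 are neighbours: 24624 bases with no other RefSeq gene separate them on chromosome 1 (GRCm38). The 150 bases before the most upstream RefSeq start (RefSeq, GRCm38.p6) are shown for the 6 genes whose promoter sequence at hand held them, 5′ to 3′ on the gene's strand. Capitals mark matches, on either strand, to TATAAA (the TATA box), CCAAT (the CCAAT box), GGGCGG (a GC box), CAGAC (bound by SMAD proteins) or TGACTCA (bound by AP-1).
Col1a2 (chr6:4505468-4505617, plus strand): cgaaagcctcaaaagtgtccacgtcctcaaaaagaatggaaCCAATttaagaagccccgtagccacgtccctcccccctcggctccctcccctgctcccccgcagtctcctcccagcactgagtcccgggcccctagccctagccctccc
Col3a1 (chr1:45311388-45311537, plus strand): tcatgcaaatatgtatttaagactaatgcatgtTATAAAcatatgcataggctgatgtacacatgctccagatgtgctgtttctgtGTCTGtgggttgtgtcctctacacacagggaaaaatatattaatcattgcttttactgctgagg
Col5a1 (chr2:27886231-27886380, plus strand): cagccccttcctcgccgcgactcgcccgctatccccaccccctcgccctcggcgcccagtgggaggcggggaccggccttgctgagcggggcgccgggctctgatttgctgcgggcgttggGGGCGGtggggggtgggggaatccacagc
Col5a3 (chr9:20815118-20815267, minus strand): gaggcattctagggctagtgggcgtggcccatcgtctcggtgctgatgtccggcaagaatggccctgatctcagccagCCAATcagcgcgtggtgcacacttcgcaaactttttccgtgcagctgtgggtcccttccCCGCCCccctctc
Col11a1 (chr3:114030329-114030478, plus strand): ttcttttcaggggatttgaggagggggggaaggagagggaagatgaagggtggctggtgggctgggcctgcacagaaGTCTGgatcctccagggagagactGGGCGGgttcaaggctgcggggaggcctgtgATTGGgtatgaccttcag
Col24a1 (chr3:145292322-145292471, plus strand): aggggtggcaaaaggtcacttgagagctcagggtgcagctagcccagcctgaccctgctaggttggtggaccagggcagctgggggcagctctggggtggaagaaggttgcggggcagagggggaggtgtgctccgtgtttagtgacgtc
CCAAT stood in the windows of Col1a2, Col5a3 and Col11a1, and GGGCGG in those of Col5a1, Col5a3 and Col11a1. TATAAA stood in that of Col3a1, and CAGAC in those of Col3a1 and Col11a1. TGACTCA was in none of the 6, and the Col24a1 window held none of the 5 motifs. Over 22803 mouse promoter windows of this length, CCAAT was present in 25.7%, GGGCGG in 25.7%, CAGAC in 28.0%, TATAAA in 8.64% and TGACTCA in 2.92%. A match is a description of the letters and not a bound site.

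The reprogramming libraries held 10616764 to 20211641 reads in genes and the iPSC libraries 21592023 to 25408585. Replicates differed by more than counting error, with a chi-square per degree of freedom of 2.93 to 10.0 over 18 pairs. As a check of the labels, the summed level of 12 fibroblast markers (Vim, Thy1, Prrx1 and others) was 5896 to 7407 CPM (a gene's reads scaled to a common total of reads in genes) in reprogramming libraries and 528 to 789 CPM in iPSC libraries. That of 10 pluripotency and epithelial markers was 13.3 to 18.9 CPM in DOX 3C UNC, 9.55 to 17.6 CPM in DOX 3C, 3.89 to 5.26 CPM in DOX UNC, 5.04 to 5.18 CPM in DOX and 4072 to 4354 CPM in iPSC libraries. In DOX 3C and in DOX most reads of this sum came from Cdh1, an epithelial gene whose values are given below. Esrrb, Dppa4, Dppa5a and Utf1 were at 0 in the DOX 3C UNC and the DOX groups. DOX 3C replicate 1 stood apart in 5 erythroid markers, with a summed 132 CPM against 7.35 to 14.9 CPM in the other 11 reprogramming libraries. Calls of the 10 members and of genes named from the other lists that change without that library are given with and without it. Counts over the other lists are given only with it.

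**Figure D1:**
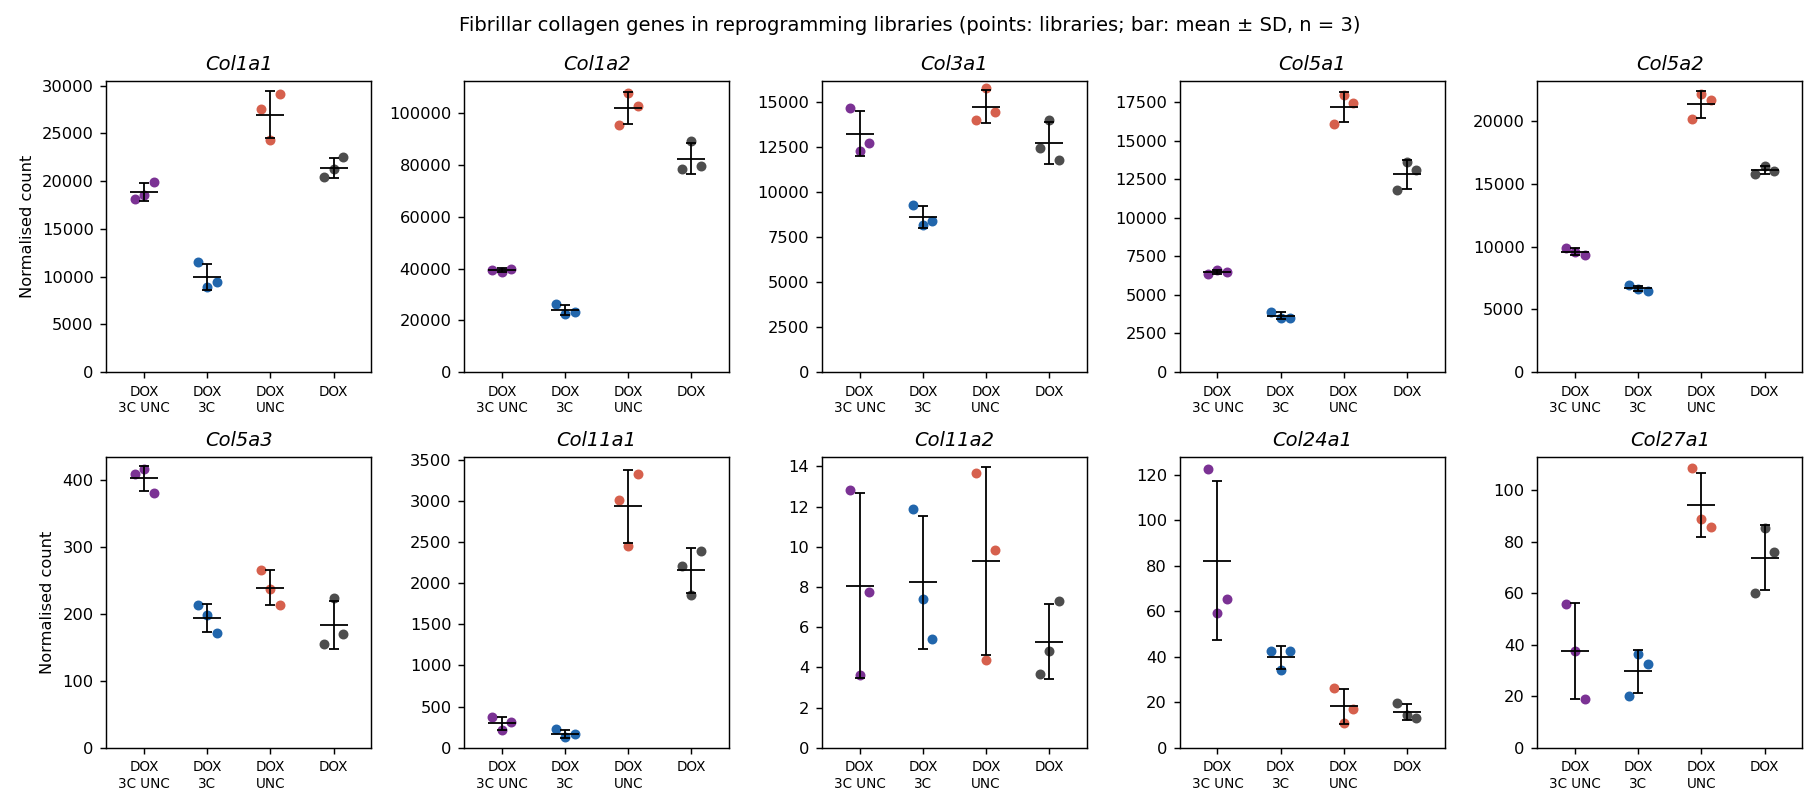
Normalised counts (vertical axes, each starting at 0) of the 10 fibrillar collagen genes in the 12 reprogramming libraries; points are libraries, bars the mean ± SD of 3. Col1a2, Col5a1, Col5a2 and Col11a1 are lowest in DOX 3C and highest in DOX UNC, while Col5a3 and Col24a1 are highest in DOX 3C UNC.

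Type I collagen was lower in cells given 3C and higher in cells given 3C with UNC than with 3C alone. Values are normalised counts, the reads of a gene divided by 1 factor per library, and each gene is compared only with itself because the table was not scaled by gene length. Col1a1 (ENSMUSG00000001506, chromosome 11, 94936224 to 94953042), the gene of the α1(I) chain, had 18146, 18517 and 19882 in DOX 3C UNC, 11531, 8922 and 9449 in DOX 3C, 27551, 24262 and 29103 in DOX UNC and 20402, 21257 and 22532 in DOX. The DOX 3C libraries were the lowest, and no pair of groups overlapped. Changes are log2 fold changes ± standard error from 1 limma fit to all 12 libraries on log2(value + 1), a scale that understates changes of genes with few reads, and a gene was called at a Benjamini-Hochberg adjusted p below 0.05 over 16138 genes. UNC in the presence of 3C raised Col1a1 by 0.93 ± 0.08 (adjusted p = 2.68e-06), and 3C without UNC changed it by -1.11 ± 0.08 (adjusted p = 4.71e-09). Its difference between DOX UNC and DOX was 0.33 ± 0.08 (adjusted p = 0.0878) and was not called. The comparisons of UNC with 3C and of 3C without UNC both use the DOX 3C libraries. Here and below, a rise in the former and a fall in the latter are therefore not independent results.

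Col1a2 (ENSMUSG00000029661, chromosome 6, 4505618 to 4541543), which encodes the α2(I) chain of the same trimer, had 39410.1, 38622 and 39997 normalised counts in DOX 3C UNC, 26213, 22238 and 23284 in DOX 3C, 95498, 107790 and 102679 in DOX UNC and 78503, 89365 and 79605 in DOX. The 4 groups again did not overlap, and here both groups with 3C lay far under both groups without it. Col1a2 fell to 23912 ± 2060.2 in DOX 3C, against 82491 ± 5978 in DOX (SD, n = 3 each; -1.79 ± 0.07, adjusted p = 1.13e-12). With UNC also present, 3C changed it by -1.37 ± 0.07 (adjusted p = 4.21e-11). UNC raised it by 0.72 ± 0.07 with 3C (adjusted p = 4.75e-06). Without 3C the difference was 0.31 ± 0.07 (adjusted p = 0.0629), and 7 of 15 alternative settings called it (adjusted p from 0.00124 to 0.256 over the 15): scaling to CPM, TMM scaling, edgeR, DESeq2, the replicate number as a block, and leaving out DOX replicate 2 (adjusted p = 0.0442) or DOX UNC replicate 1 (adjusted p = 0.0338).

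Col3a1 (ENSMUSG00000026043, chromosome 1, 45311538 to 45349706), whose product forms the homotrimer of type III collagen, changed least with 3C among the members called in that comparison. It had 14674, 12305 and 12741 normalised counts in DOX 3C UNC, 9309, 8181 and 8370.3 in DOX 3C, 14015, 15784 and 14463 in DOX UNC and 12423, 14034 and 11779 in DOX. Only the DOX 3C libraries stood apart, below the other 3 groups, which overlapped one another. 3C without UNC changed Col3a1 by -0.56 ± 0.08 (adjusted p = 7.45e-06), and UNC with 3C raised it by 0.62 ± 0.08 (adjusted p = 4.65e-05). Its difference between DOX 3C UNC and DOX UNC was -0.16 ± 0.08 (adjusted p = 0.0978) and was called only without DOX 3C UNC replicate 1 (-0.23, adjusted p = 0.0157; the 15 alternatives ran from 0.0157 to 0.322).

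The fold changes of the main chains of type V collagen had the sign of those of type I in each comparison. Col5a1 (ENSMUSG00000026837, chromosome 2, 27886381 to 28039510), the α1(V) chain that most type V trimers hold, had 6365, 6586 and 6492 normalised counts in DOX 3C UNC, 3896, 3536 and 3506 in DOX 3C, 16101, 17963 and 17463 in DOX UNC and 11788, 13627 and 13085 in DOX. Col5a2 (ENSMUSG00000026042, chromosome 1, 45374331 to 45503282), the α2(V) chain and the neighbour of Col3a1, had 9871, 9603 and 9332 in DOX 3C UNC, 6922, 6638 and 6489 in DOX 3C, 20165, 22193 and 21727 in DOX UNC and 15780.4, 16428 and 16073 in DOX. For both genes the 4 groups were ordered DOX UNC, DOX, DOX 3C UNC and DOX 3C from high to low, with no overlap. These were the members called for UNC in the absence of 3C, Col5a1 at 0.42 ± 0.06 (adjusted p = 0.00347) and Col5a2 at 0.41 ± 0.05 (adjusted p = 0.00149). With 3C, UNC raised Col5a1 by 0.83 ± 0.06 and Col5a2 by 0.52 ± 0.05 (adjusted p = 7.18e-07 and 3.57e-06). 3C without UNC changed Col5a1 by -1.81 ± 0.06 and Col5a2 by -1.27 ± 0.05 (adjusted p = 1.25e-13 and 1.08e-12), so that Col5a1 in DOX 3C was at 0.284 times its level in DOX.

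Col5a3 (ENSMUSG00000004098, chromosome 9, 20770050 to 20815117), which encodes the α3(V) chain found in fewer tissues, did not follow the other type V genes. It had 409, 417 and 381 normalised counts in DOX 3C UNC, 214, 198 and 172 in DOX 3C, 266, 238 and 213 in DOX UNC and 156, 223 and 169.9 in DOX. The DOX 3C UNC libraries lay above all others, and the DOX 3C libraries lay within the range of the DOX libraries. UNC with 3C raised Col5a3 by 1.05 ± 0.13 (adjusted p = 3.37e-05), and 3C in the presence of UNC raised it by 0.75 ± 0.13 (adjusted p = 7.46e-05). The difference between DOX 3C and DOX was 0.10 ± 0.13 (adjusted p = 0.541), with a 95% interval of -0.17 to 0.36, and that between DOX UNC and DOX was 0.39 ± 0.13 (adjusted p = 0.226).

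Col11a1 (ENSMUSG00000027966, chromosome 3, 114030479 to 114220756), the α1(XI) chain, had the widest span of the members. It had 369, 212 and 316 normalised counts in DOX 3C UNC, 222, 127 and 162 in DOX 3C, 3005, 2455 and 3329 in DOX UNC and 2206, 1858 and 2394 in DOX. Every library with 3C lay under every library without it, and the DOX 3C UNC and DOX 3C libraries overlapped. Col11a1 fell to 170.5 ± 47.8 in DOX 3C, against 2153 ± 272 in DOX (SD, n = 3 each), a change of -3.68 ± 0.19 (adjusted p = 2.47e-11), and 38 of the 16138 genes tested had a lower fold change. With UNC present, 3C changed it by -3.31 ± 0.19 (adjusted p = 1.02e-10). UNC with 3C raised it by 0.81 ± 0.19 (adjusted p = 0.00827), a call that was lost without DOX 3C replicate 2 (0.62, adjusted p = 0.0530) or without DOX 3C UNC replicate 1 (0.64, adjusted p = 0.0524; the 15 alternatives ran from 2.77e-06 to 0.0530). Its difference between DOX UNC and DOX was 0.44 ± 0.19 (adjusted p = 0.443).

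Col11a2 (ENSMUSG00000024330, chromosome 17, 34038919 to 34066684), the α2(XI) chain, had few reads, with 12.8, 3.64 and 7.73 normalised counts in DOX 3C UNC, 11.9, 7.41 and 5.4 in DOX 3C, 13.7, 4.38 and 9.82 in DOX UNC and 3.68, 4.8 and 7.32 in DOX. All 4 groups overlapped, no difference was called, and at this depth intervals were wide: that of UNC with 3C ran from -1.14 to 0.93 on the log2 scale. Of 9 cartilage and bone markers, Col9a1 and Ibsp were at 0 in DOX 3C UNC and in DOX, and the summed level of the 9 was 57.4 to 59.1 CPM in DOX 3C UNC, 44.6 to 50.9 CPM in DOX 3C, 49.7 to 51.6 CPM in DOX UNC and 48.5 to 56.3 CPM in DOX.

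Col24a1 (ENSMUSG00000028197, chromosome 3, 145292472 to 145552013), the chain of type XXIV collagen, was the member raised by 3C without UNC. It had 122, 59.4 and 65.2 normalised counts in DOX 3C UNC, 42.7, 34.1 and 42.5 in DOX 3C, 26.5, 11 and 17 in DOX UNC and 19.6, 14.4 and 13.2 in DOX. All libraries with 3C lay above all libraries without it, and DOX 3C UNC replicate 1 was the highest. It rose by 1.30 ± 0.31 with 3C alone (adjusted p = 0.00201) and by 2.13 ± 0.31 with 3C in the presence of UNC (adjusted p = 1.77e-05). The difference between DOX 3C UNC and DOX 3C was 0.96 ± 0.31 (adjusted p = 0.0521) and was called under 6 of 15 alternative settings (adjusted p from 0.00677 to 0.238 over the 15): a pseudocount of 5, edgeR, DESeq2, a fit to the 2 groups alone, the replicate number as a block, and leaving out DOX 3C UNC replicate 2 (1.16, adjusted p = 0.0378).

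Col27a1 (ENSMUSG00000045672, chromosome 4, 63214009 to 63334991), the chain of type XXVII collagen, had 55.9, 37.6 and 18.8 normalised counts in DOX 3C UNC, 20.2, 36.3 and 32.4 in DOX 3C, 108, 88.8 and 85.7 in DOX UNC and 60.1, 85.3 and 76.1 in DOX. Libraries with 3C lay below those without it, and the spread within DOX 3C UNC covered that of DOX 3C. It fell with 3C alone by 1.32 on the log2 scale (SE 0.30, adjusted p = 0.00137) and changed by -1.43 ± 0.30 with 3C in the presence of UNC (adjusted p = 0.000688). Differences with UNC were 0.24 ± 0.30 with 3C and 0.36 ± 0.30 without it, neither called (adjusted p = 0.668 and 0.799). RefSeq places 1 other gene over Col5a1 (Gm13372), 1 over Col24a1 (Gm35133) and 2 over Col27a1 (Mir455 and Gm52743), and whether reads were counted by strand is not given, so reads of these may be mixed.

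**Figure D2:**
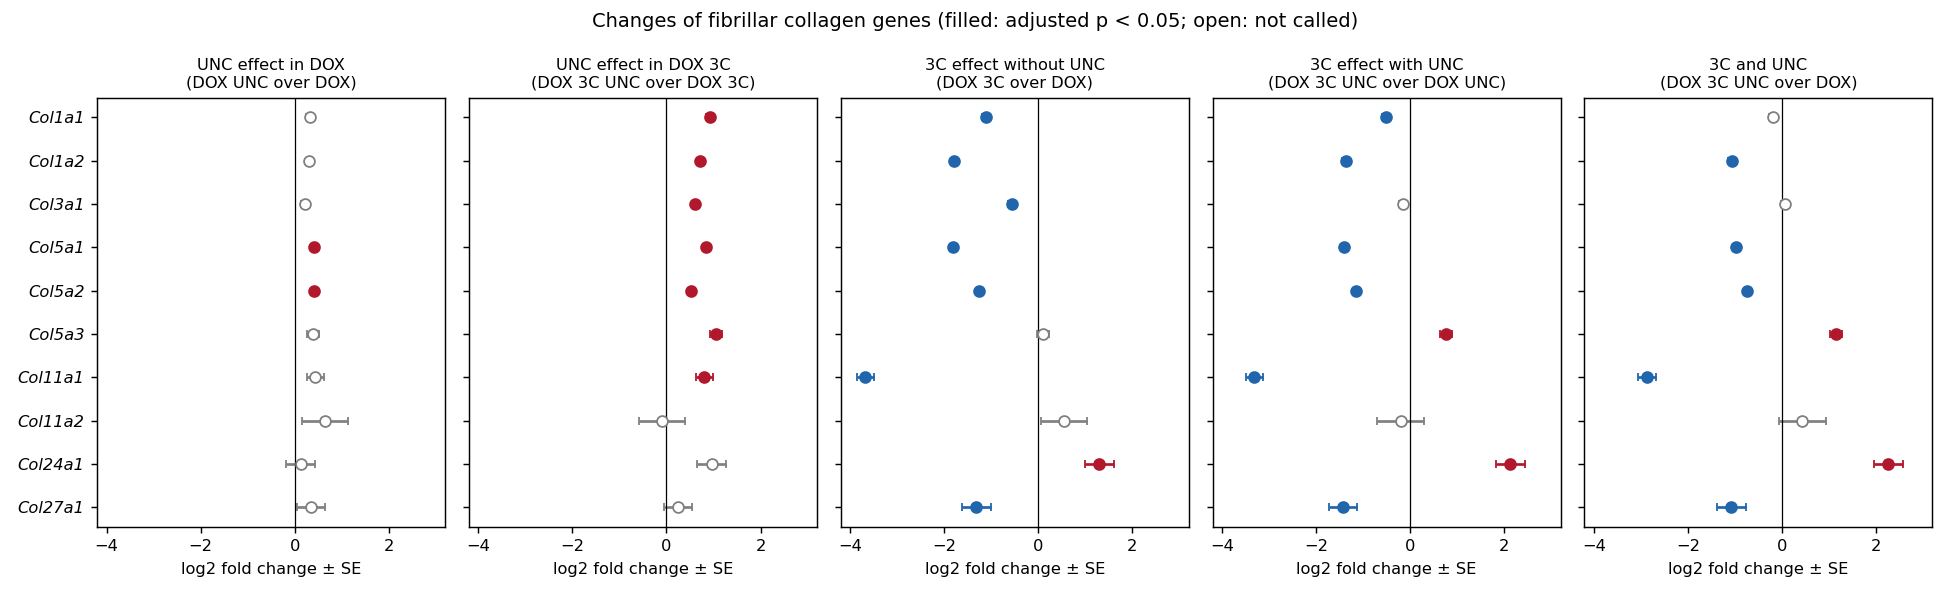
Log2 fold change ± SE (horizontal axes) of each gene in 5 comparisons of the 12 reprogramming libraries; red marks genes called higher, blue genes called lower, and open points genes not called. Both comparisons of UNC lie mainly right of 0, and Col11a1 lies farthest left, at -3.68, under 3C without UNC.

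In cells given 3C, UNC raised 7 of the 10 members and lowered none: Col1a1, Col1a2, Col3a1, Col5a1, Col5a2, Col5a3 and Col11a1. Over all genes 11.6% were called, 7.71% higher and 3.94% lower. The median log2 fold change was 0.76 over the members and -0.002 over all genes tested. Libraries of the 2 groups did not overlap for 7 members, where this held for 28.8% of all genes. Without 3C, UNC raised 2 members, Col5a1 and Col5a2, where 0.607% of all genes were called: 0.508% were called higher and 0.0991% lower. All 10 fold changes were above 0, with a median of 0.38 against 0.004 over all genes, and libraries did not overlap for 6 members, against 15.2% of all genes.

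Whether UNC acted differently with and without 3C was tested as the difference of the 2 UNC effects. No member was called by limma, which called 0.062% of all genes, and 5 had an unadjusted p below 0.05, as 11.1% of all genes did. edgeR called 0 members, and DESeq2 called 5, where it called 1.22% of the genes it tested. With the replicate number as a block, limma called 5 members, where it called 2.56% of all genes. The difference was 0.66 ± 0.18 for Col5a3 (adjusted p = 0.143), 0.60 ± 0.12 for Col1a1 (adjusted p = 0.0558) and 0.41 ± 0.09 for Col5a1 (adjusted p = 0.0692). For Col5a2 it was 0.12 ± 0.07 (adjusted p = 0.582), with a 95% interval of -0.03 to 0.27. Without DOX 3C replicate 1, the library that stood apart in erythroid markers, 3 members were called, where the share of all genes called was 0.434%: Col1a1 (0.71 ± 0.10, adjusted p = 0.0101), Col5a1 (0.46 ± 0.09, adjusted p = 0.0344) and Col1a2 (0.48 ± 0.10, adjusted p = 0.0453). Over 20 alternatives the adjusted p of the difference ran from 0.00047 to 0.144 for Col1a1, from 0.00126 to 0.156 for Col5a1 and from 0.00351 to 0.245 for Col1a2.

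3C without UNC lowered 7 members and raised 1, Col24a1, while Col5a3 and Col11a2 were not called. These counts stand in a comparison that called 49.4% of all genes, 24.7% lower and 24.7% higher. The members' median log2 fold change was -1.19, against 0.02 over all genes. With UNC present, 3C lowered 6 members and raised 2, Col5a3 and Col24a1, where 47.4% of all genes were called, 23.5% lower and 23.9% higher. Without DOX 3C replicate 1, 7 members were called for UNC with 3C, where 10% of all genes were called. For 3C without UNC it was 8 members, where 45% of all genes were called.

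When 3C and UNC were given together and compared with DOX, 5 members were lower (Col1a2, Col5a1, Col5a2, Col11a1 and Col27a1) and 2 higher (Col5a3 and Col24a1), where 49.9% of all genes were called, 24.6% lower and 25.3% higher. Col1a1 averaged 18848 ± 914 normalised counts in DOX 3C UNC and 21397 ± 1072 in DOX (SD, n = 3 each), a difference of -0.18 ± 0.08 (adjusted p = 0.078, 95% interval -0.36 to -0.01). Col3a1 averaged 13240.3 ± 1261 in DOX 3C UNC and 12745 ± 1162 in DOX, a difference of 0.05 ± 0.08 (adjusted p = 0.582, 95% interval -0.11 to 0.22). Col1a2, by contrast, was at 0.478 times its DOX level (-1.07 ± 0.07, adjusted p = 1.18e-09) and Col11a1 at 0.137 times (-2.87 ± 0.19, adjusted p = 6.95e-10). This comparison shares its DOX libraries with those of 3C and of UNC alone.

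The 10 genes together took 0.583 ± 0.026% of the reads in genes in DOX 3C UNC, 0.355 ± 0.028% in DOX 3C, 1.18 ± 0.033% in DOX UNC and 0.954 ± 0.052% in DOX (SD, n = 3 each). The groups did not overlap, and most of these reads belonged to Col1a1 and Col1a2. In such bulk libraries, fewer collagen-producing cells and less collagen RNA per cell cannot be told apart. The summed level of the 12 fibroblast markers was 6703 to 7407 CPM in DOX 3C UNC, 5897 to 6270 CPM in DOX 3C, 6121 to 6555 CPM in DOX UNC and 5896 to 6019 CPM in DOX. With 3C, where 11.6% of all genes were called, 8 of these 12 markers rose with UNC and none fell, among them Thy1, a surface protein of fibroblasts, at 0.86 ± 0.08 (adjusted p = 3.28e-06), and Prrx1, a homeobox factor of limb mesenchyme, at 0.32 ± 0.05 (adjusted p = 0.000268). With 3C without UNC, where 49.4% of all genes were called, 3 rose and 2 fell. Twist1, a mesenchymal transcription factor, at 1.58 ± 0.08 and Fap, a surface protease of activated fibroblasts, at 3.31 ± 0.34 had the smallest p (adjusted p = 4.39e-11 and 3.04e-07). Over the 12 markers the median was -0.006, and 5 fold changes were above 0. Fap had few reads, with 41.7 ± 5.56 normalised counts in DOX 3C and 3.39 ± 1.24 in DOX (SD, n = 3 each). The part of these marker changes in the collagen changes was not tested.

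Markers of other cell types were counted beside shares of all genes called of 49.4% for 3C without UNC and 11.6% for UNC with 3C. Of the 10 pluripotency and epithelial markers, 2 passed the filter, and both rose with 3C without UNC: Cdh1, the epithelial cadherin, by 1.38 ± 0.21 and Epcam, an epithelial adhesion protein, by 2.32 ± 0.52 (adjusted p = 3.12e-05 and 0.00118). Neither was called for UNC with 3C. Cdh1 had 198 ± 67.5 normalised counts in DOX 3C and 71.7 ± 1.85 in DOX (SD, n = 3 each). Epcam had 14.9 ± 1.52 in DOX 3C and 2.52 ± 2.07 in DOX, so the reads of this list in these groups came mostly from Cdh1. Of 5 endothelial markers 2 passed the filter, and both were lower with 3C without UNC. Tek, an angiopoietin receptor, was at -0.60 ± 0.09 and Cdh5, the endothelial cadherin, at -2.77 ± 0.65 (adjusted p = 2.86e-05 and 0.00176). Cdh5 was near the floor, with 1.19 ± 2.05 normalised counts in DOX 3C and 10.4 ± 1.75 in DOX (SD, n = 3 each). Tek had 1740 ± 85.1 in DOX 3C and 2645 ± 172 in DOX, so the reads of this list came mostly from Tek. The summed level of the 5 was 86.0 to 123 CPM in DOX 3C UNC, 110.4 to 122 CPM in DOX 3C, 164 to 187 CPM in DOX UNC and 159.7 to 182 CPM in DOX, and neither gene was called for UNC with 3C. Of the 9 cartilage and bone markers 5 were tested. UNC with 3C raised 2 of them, Acan, the cartilage proteoglycan aggrecan, by 0.64 ± 0.14 and Sp7, a transcription factor of osteoblasts, by 1.48 ± 0.41 (adjusted p = 0.00512 and 0.0239). The call of Sp7 was lost without DOX 3C replicate 1 (1.21 ± 0.44, adjusted p = 0.0933). 3C without UNC raised 2 and lowered 2, with Acan at 1.88 ± 0.14 and Alpl, the alkaline phosphatase of bone, at -2.51 ± 0.18 having the smallest p (adjusted p = 2.78e-09 and 2.96e-09). Of 4 tested erythroid markers, 3C without UNC raised Alas2, the first enzyme of heme synthesis in red cells, to 37.3 ± 18.1 normalised counts in DOX 3C, against 8.95 ± 6.17 in DOX, and Hba-a1, an α-globin gene with a near-identical copy, by 1.79 ± 0.66 on the log2 scale (adjusted p = 0.00174 and 0.0323). Without DOX 3C replicate 1 the log2 change was 1.74 ± 0.54 for Alas2 (adjusted p = 0.0142) and 0.71 ± 0.49 for Hba-a1 (adjusted p = 0.261), so Hba-a1 was no longer called. None of 9 tested macrophage markers was called for 3C without UNC or for UNC with 3C. With UNC present, 3C raised 1 of the 9, where 47.4% of all genes were called. In DOX 3C UNC against DOX 1 was lower, where 49.9% of all genes were called. The summed level of the 10 on the list ran from 7.47 to 31.4 CPM over the 12 reprogramming libraries, with all 4 groups overlapping. What part these cell types have in the collagen values was not tested.

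**Figure D3:**
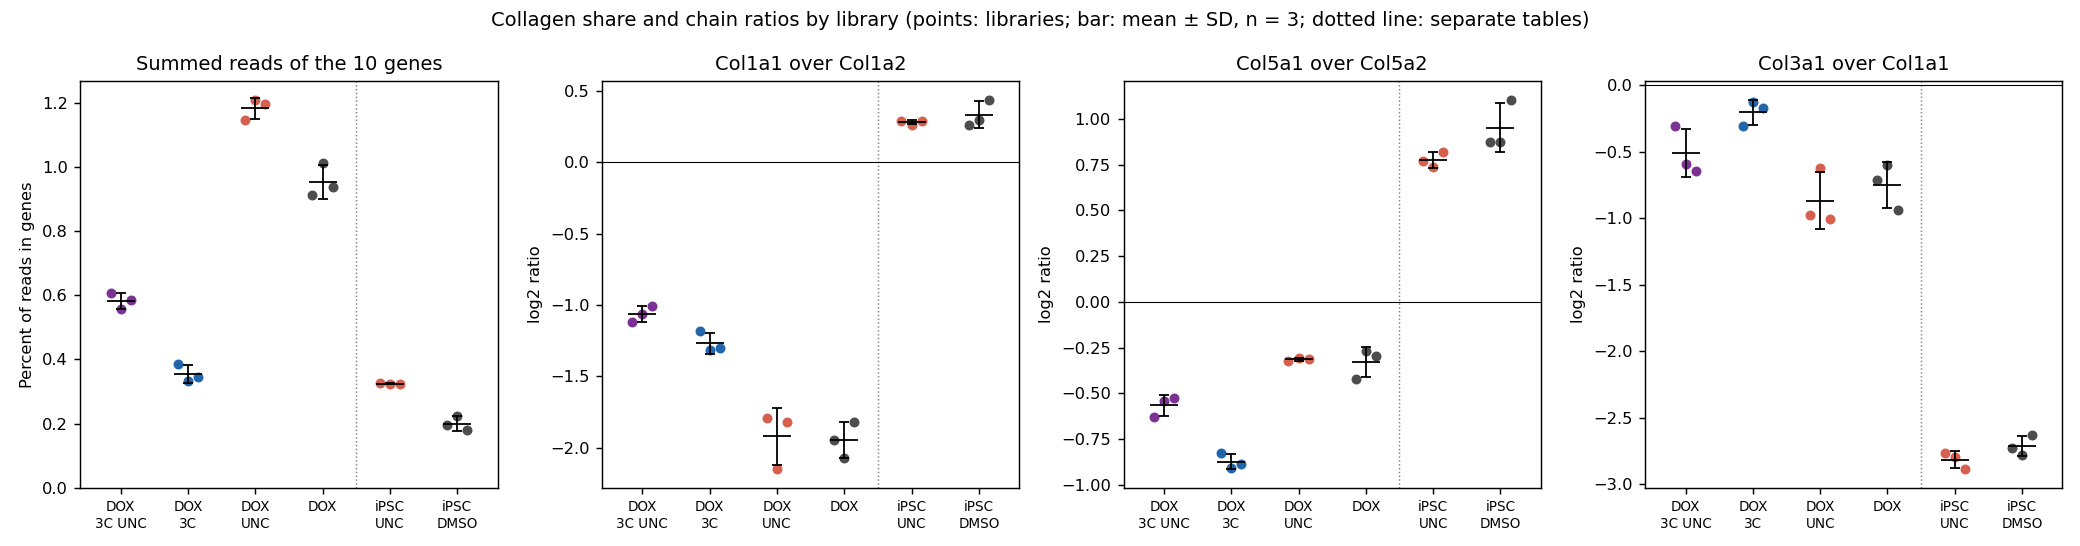
Share of all reads in genes taken by the 10 collagen genes (percent, first panel) and log2 ratios of chain pairs within a library, with iPSC libraries right of the dotted line because their table was made separately; points are libraries, bars the mean ± SD of 3. Col1a1 over Col1a2 is higher in the groups with 3C, at -1.06 and -1.27, than in those without it, at -1.92 and -1.95.

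The chains of 1 collagen type did not keep their ratio across groups. A ratio within a library still depends on the lengths of both genes, which cancel when the same ratio is compared between libraries. The log2 ratio of Col1a1 to Col1a2 was -1.12, -1.06 and -1.01 in DOX 3C UNC, -1.18, -1.32 and -1.30 in DOX 3C, -1.79, -2.15 and -1.82 in DOX UNC and -1.94, -2.07 and -1.82 in DOX. All 6 libraries with 3C lay above all 6 without it. The ratio of Col5a1 to Col5a2 was -0.57 ± 0.06 in DOX 3C UNC, -0.88 ± 0.04 in DOX 3C, -0.31 ± 0.01 in DOX UNC and -0.33 ± 0.08 in DOX (SD, n = 3 each), so there the libraries with 3C lay below. The ratio of Col3a1 to Col1a1 was -0.51 ± 0.18 in DOX 3C UNC, -0.20 ± 0.10 in DOX 3C, -0.87 ± 0.22 in DOX UNC and -0.75 ± 0.17 in DOX, and DOX 3C was the group that overlapped neither DOX UNC nor DOX nor, except for DOX 3C UNC replicate 1, the DOX 3C UNC libraries. These ratios were described and not tested.

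**Figure D4:**
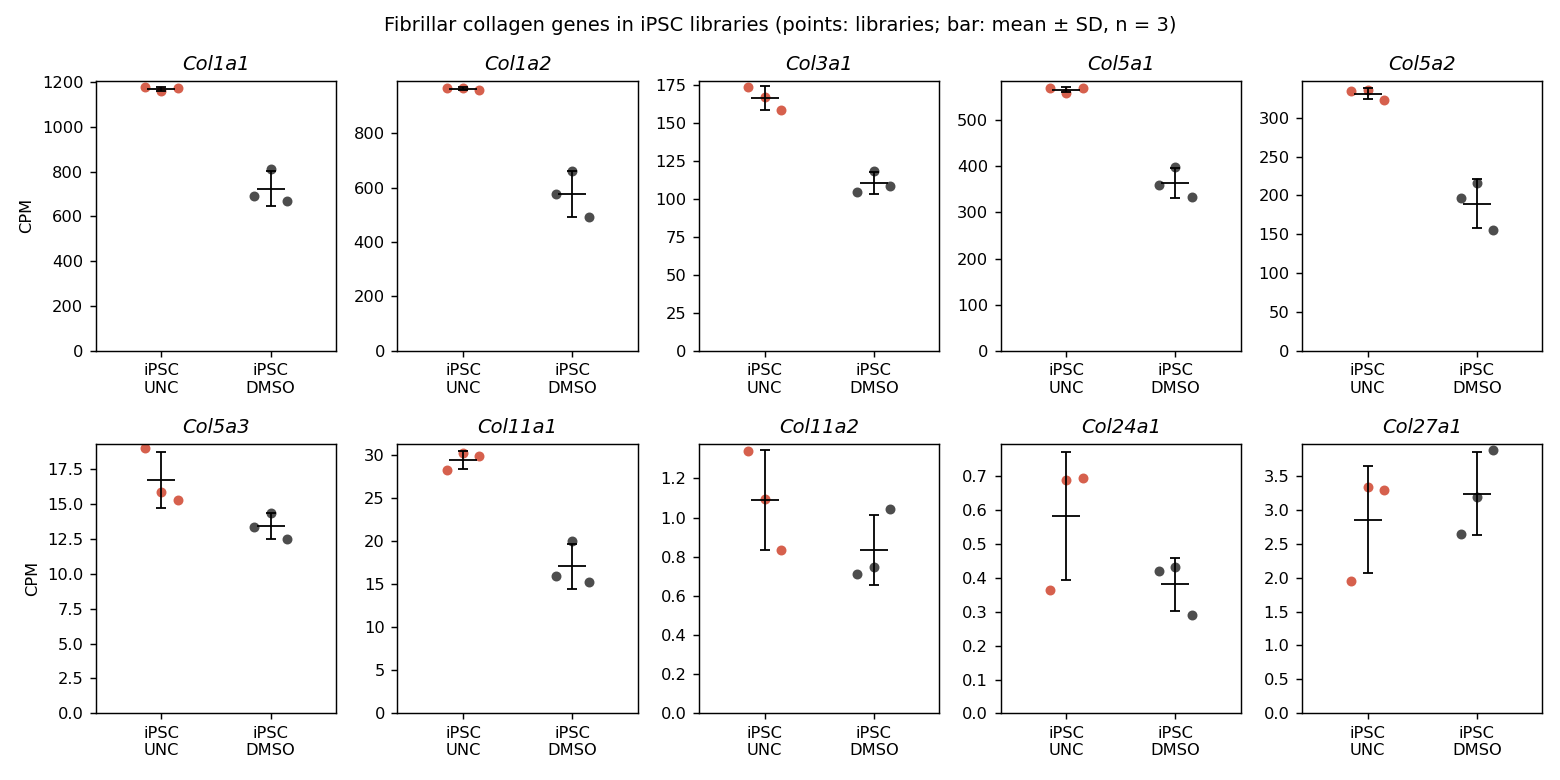
CPM (vertical axes, each starting at 0) of the 10 genes in the 6 iPSC libraries; points are libraries, bars the mean ± SD of 3. The iPSC UNC libraries lie above the iPSC DMSO libraries for 7 genes, such as Col1a1 at 1161 to 1177 CPM in iPSC UNC and 670 to 812 CPM in iPSC DMSO.

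In iPSC derived with UNC for the first 48 hours, 6 of the 10 members were higher than in iPSC derived with DMSO and none was lower (edgeR quasi-likelihood test, 17987 genes), where 1.31% of all genes were called: 1.27% were called higher and 0.0389% lower. Libraries did not overlap for 7 members, against 19.2% of all genes, and the median log2 fold change was 0.63 over the members and -0.007 over all genes. Col1a1 had 1177, 1161 and 1172 CPM in iPSC UNC and 692, 812 and 669.8 CPM in iPSC DMSO, a change of 0.70 ± 0.07 (adjusted p = 0.00216). Col1a2 had 965, 966 and 957 CPM in iPSC UNC and 576, 662 and 493 CPM in iPSC DMSO (0.75 ± 0.09, adjusted p = 0.00275). For both type I genes the iPSC UNC libraries lay closer together than the iPSC DMSO libraries did. Col3a1 had 174, 167 and 158 CPM in iPSC UNC and 105, 118 and 108 CPM in iPSC DMSO (0.60 ± 0.06, adjusted p = 0.00216).

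Col5a1, Col5a2 and Col11a1 rose as well. Col5a1 had 571, 559 and 570.2 CPM in iPSC UNC and 360.3, 398 and 334 CPM in iPSC DMSO (0.65 ± 0.07, adjusted p = 0.00216). Col5a2 had 334, 336 and 323 CPM in iPSC UNC and 197, 217 and 155 CPM in iPSC DMSO (0.81 ± 0.10, adjusted p = 0.00332), the largest change of the members here. Col11a1 had 28.3, 30.3 and 29.9 CPM in iPSC UNC and 15.9, 20.1 and 15.3 CPM in iPSC DMSO (0.79 ± 0.10, adjusted p = 0.00363). The groups did not overlap for any of these 3 genes. Col5a3 had 19, 15.9 and 15.2 CPM in iPSC UNC and 13.4, 14.3 and 12.5 CPM in iPSC DMSO, without overlap, and was not called (0.33 ± 0.11, adjusted p = 0.244). The lowest members, Col11a2, Col24a1 and Col27a1, had 0.292 to 3.87 CPM a library, overlapped between groups and were not called (adjusted p of 0.621, 0.564 and 0.799).

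The 10 genes took 0.325 ± 0.0022% of reads in iPSC UNC and 0.200 ± 0.023% in iPSC DMSO (SD, n = 3 each). The 12 fibroblast markers moved with them, with a summed 704 to 789 CPM in iPSC UNC and 528 to 587 CPM in iPSC DMSO. Of the 12, 5 were called higher and none lower, where 1.31% of all genes were called, and all 12 fold changes were above 0. Thy1 changed by 0.77 ± 0.11 (adjusted p = 0.0057) and Prrx1 by 0.73 ± 0.09 (adjusted p = 0.00363). None of the 10 pluripotency and epithelial markers was called, and their sum was 4072 to 4354 CPM in iPSC UNC and 4281 to 4343 CPM in iPSC DMSO. The part of either marker set in the collagen difference was not tested. In these bulk iPSC libraries too, more collagen-producing cells and more collagen RNA per cell cannot be told apart. Within these libraries the log2 ratio of Col1a1 to Col1a2 was 0.28 ± 0.01 in iPSC UNC and 0.33 ± 0.09 in iPSC DMSO, a difference within the spread of the DMSO libraries, and that of Col5a1 to Col5a2 was 0.78 ± 0.04 in iPSC UNC and 0.95 ± 0.13 in iPSC DMSO. Both ratios lay above 0, unlike in the reprogramming table, but the 2 tables were made separately and were not tested against each other.

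Genes that process the chains were counted from lists, beside shares of all genes called of 11.6% for UNC with 3C, 49.4% for 3C without UNC, 0.607% for UNC without 3C and 1.31% in iPSC. Of 18 genes for procollagen hydroxylation and folding, UNC with 3C raised 6 and lowered 2, the 2 named by smallest p being Colgalt2, a collagen galactosyltransferase, at -1.24 ± 0.18 (adjusted p = 0.000205), and Sec24d, part of the COPII coat that carries procollagen out of the endoplasmic reticulum, at 0.51 ± 0.08 (adjusted p = 0.00064). 3C without UNC raised 2 of them and lowered 11, among them P4ha1, a catalytic subunit of the ascorbate-dependent prolyl 4-hydroxylase, at -0.83 ± 0.06, and P3h4, part of a lysyl hydroxylase complex, at -0.72 ± 0.06 (adjusted p = 6.82e-09 and 1.28e-08). Without 3C, UNC raised none and lowered 1, and in iPSC it raised 2 and lowered none.

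Of 12 genes for propeptide cleavage and cross-linking, UNC with 3C raised 9 and lowered none, with a median of 0.56. Loxl1, a lysyl oxidase, had 2627 ± 82.8 normalised counts in DOX 3C UNC and 1539 ± 134 in DOX 3C (0.77 ± 0.07, adjusted p = 2.33e-06), and Bmp1, the protease that cuts the C-propeptide, changed by 0.62 ± 0.06 (adjusted p = 3.03e-06). 3C without UNC raised 4 and lowered 7 of the 12. Lox, the main cross-linking oxidase, had 370.1 ± 54.3 normalised counts in DOX 3C and 11368 ± 877 in DOX (-4.94 ± 0.12, adjusted p = 1.15e-15), a larger change than that of any collagen chain here, and Loxl2 changed by -3.03 ± 0.14 (adjusted p = 1.19e-11). Without 3C, UNC raised 3 and lowered none, and in iPSC it raised 7 of 11 tested.

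Of 16 tested fibril partners, UNC with 3C raised 12 and lowered none, with Tgfbi, a matrix protein that binds collagen, at 1.01 ± 0.08 and Sparc, a collagen-binding glycoprotein, at 0.54 ± 0.05 (adjusted p = 7.44e-07 and 5.69e-06). 3C without UNC lowered 11 and raised 1, with Col6a3, a chain of the beaded type VI collagen, at -1.76 ± 0.07 and the proteoglycan gene Bgn at -2.36 ± 0.10 (adjusted p = 1.08e-12 and 1.32e-12). Without 3C, UNC raised 2, and in iPSC it raised 9 of 16, with none lower in either. Among 8 collagen receptors, UNC with 3C raised 1, the endocytic receptor Mrc2, at 0.50 ± 0.08 (adjusted p = 0.000482). That count is near the share of all genes called in this comparison, 11.6%. 3C without UNC lowered 4 receptors and raised 1, 5 of 8 where 49.4% of all genes were called, with the integrin β1 gene Itgb1 at -0.81 ± 0.06 and Mrc2 at -0.95 ± 0.08 (adjusted p = 4.16e-09 and 1.60e-08). UNC without 3C changed none of the 8, and in iPSC it raised 4. Of 7 tested collagen-degrading enzymes and inhibitors, UNC with 3C raised 6, and the 2 with the smallest p were inhibitors of the proteases, Timp3 at 0.85 ± 0.07 and Timp2 at 0.73 ± 0.09 (adjusted p = 1.22e-06 and 4.07e-05). 3C without UNC lowered 4 of the 7 and raised 1, with Timp3 at -3.38 ± 0.07 and the membrane collagenase gene Mmp14 at -0.59 ± 0.07 (adjusted p = 2.63e-16 and 2.85e-06). UNC without 3C raised 2 of the 7 and in iPSC 5, with none lower.

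Over the 12 reprogramming libraries, the genes other than the members whose log2 values were most like those of Col1a1 were Dap (Pearson r = 0.988), Rbms3 (0.984), B2m (0.982), Gm2115 (0.979) and Jak1 (0.978). These values describe 12 libraries that fall into 4 groups, so they largely rank genes by the order of the group means.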

How the data were processed

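RNA was measured in 18 libraries by TruSeq stranded total RNA sequencing with RiboZero Gold, per the labels' protocols. The submitters' processing notes name mm10, HTSeq 0.5.4p3, TopHat2 2.1.0, DESeq and SAMtools 1.8. The deposited reprogramming table held a signal, the authors' read counts divided by 1 factor per library; every value was a whole number of reads within 0.01. The deposited iPSC table held raw counts; title numbers name its replicates, since descriptions number the DMSO libraries differently. A further 2 columns of reprogramming cells' table belonged to no sample described here and stayed out of every step, and the 10 H3K9me2 samples were not analysed here.

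A gene entered the limma 3.58.1 test (empirical Bayes with trend, R 4.3.3) on log2(value + 1) if 3 or more of the 12 libraries had 10 or more; all 4 groups shared 1 fit. The iPSC counts went through edgeR 4.0.16 (TMM, filterByExpr, quasi-likelihood test). Benjamini-Hochberg adjustment ran within each comparison, over 16138 and 17987 genes. edgeR and DESeq2 1.42.0 on recovered reads, other scalings, filters and pseudocounts, a replicate block and leaving out each library were alternatives. The code was tested on simulated data. All 10 members were named, with the 2 genes of smallest p among those called in each list for UNC with 3C and 3C without UNC, and the 5 genes most like Col1a1; Thy1 and Prrx1 were given again in iPSC. Members, lists and motifs were chosen with earlier results of these data known. Symbols matched 54042 of 54109 and 54723 of 54838 identifiers. Promoters came from a RefSeq table that held 8 of the 10 members, of which 6 are shown.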

Additional observations from a re-analysis of the deposited data

How the results depend on the processing

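Of 38 member changes that were called, 544 of 546 alternative settings kept the call and its direction, none changed direction, and 2 lost the call, both for Col11a1 under UNC with 3C, as given above. The number of members called for UNC without 3C was 2 and became 4 with DESeq2, where the share of all genes called was 0.607% and became 1.17%. For the difference of UNC effects it was 0 (0.062% of all genes called) and became 1 with a pseudocount of 5 (Col1a1; 0.18% of all genes), 2 with scaling to CPM (0.149%), 5 with DESeq2 (1.22%) and 3 without DOX 3C replicate 1 (0.434%); leaving out 1 library at a time gave 0 to 3. With the replicate number as a block, 5 members were called for UNC without 3C and 5 for the difference, where the shares of all genes called became 2.53% and 2.56%. Libraries of the same number deviated together in the reprogramming table (r 0.059 to 0.223 over 18 pairs, against -0.194 to -0.010 for other numbers), and each of 36 cases matched its own number best. No label says what the number marks, so it was not made part of the design and the main fits used no block. The member counts for UNC without 3C and for the difference of UNC effects depend on this choice. In iPSC the r was 0.071 to 0.156 over 3 pairs of the same number and -0.197 to 0.132 over 6 pairs of other numbers. There 4 of 6 cases matched their own number best. Of 32 member differences that were not called, 35 of 514 alternatives gained a call and 16 changed sign. The log2 difference of Col11a2 under UNC with 3C was 0.050 with edgeR and 0.021 with DESeq2. With 1 library left out at a time, it ran from -0.48 to 0.31 for Col11a2 under UNC with 3C and from -0.61 to 0.21 under 3C with UNC. For Col27a1 it ran from -0.11 to 0.65 under UNC with 3C, from -0.46 to 0.30 as the difference of UNC effects and from -0.31 to 0.038 in iPSC. For Col5a3 it ran from -0.0079 to 0.25 under 3C without UNC, for Col24a1 from -0.17 to 0.43 under UNC without 3C, and for Col3a1 from -0.022 to 0.13 in DOX 3C UNC against DOX. The cause of these changes was not tested. Without Col1a1 and Col1a2 the collagen share was 0.199% in DOX 3C UNC, 0.129% in DOX 3C, 0.361% in DOX UNC, 0.284% in DOX, 0.111% in iPSC UNC and 0.0699% in iPSC DMSO, since these genes hold most of the reads. The difference of UNC effects needs all 4 groups, so no smaller fit was made for it. Col11a2 had 3 to 16 reads a library in the reprogramming table, so small differences of it were not detectable at this depth. Of 33 values named from the other lists, 31 kept their call without DOX 3C replicate 1, an alternative chosen after seeing the data, and Sp7 and Hba-a1 lost theirs.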
